A study of Mus musculus with 4 samples.

Results

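The 10 genes described here encode the core of antigen presentation by the major histocompatibility complex (MHC): the class I heavy chains H2-K1 and H2-D1 with their light chain B2m, the peptide transporter subunits Tap1 and Tap2 with tapasin (Tapbp), and the class II chains H2-Aa, H2-Ab1 and H2-Eb1 with the invariant chain Cd74. They were given as a list of gene symbols, drawn up with earlier results of these data known, and were found by symbol among the 13410 genes with a probe on the array. Of the 10 genes, 9 had a probe with a value on all 4 arrays, and H2-K1 had no probe of that symbol and was not testable. H2-D1 had 2 probes, of which 1 had no value on any array, so each of the 9 genes rests on 1 probe.

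The samples were lungs of 4 bleomycin-treated mice of the inbred strain A/J, each set on its own 2-colour array against 1 shared pool of control A/J lung RNA. Bleomycin breaks DNA and is given to animals as a model of lung injury, and the RNA of both channels had been amplified. Dose, route, time after treatment, age, sex and the number of mice in the pool were not stated in the labels. Each value was the log ratio between a treated mouse and the pool, read here as log2, and neither its base nor which RNA is on top of the ratio is stated. The text therefore says only whether a gene lay above or below 0; with the pool on top, each sign would turn round while sizes and p-values stayed as they are. The arrays held values for 9427 to 12136 of 17280 spots. The pool counts as 1 control sample, so p-values cover the spread between treated mice and not that between control mice. Since whole lung was measured, fewer cells of a type and less RNA per cell cannot be told apart. A ratio carries no level, so the labelled tissue could not be checked by abundance. The surfactant genes Sftpa1 and Sftpd had values on 4 arrays and Sftpc on 3.

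Class I molecules sit on nearly all nucleated cells and show peptides from inside the cell to CD8+ T cells. The peptides are cut by the proteasome, pumped into the endoplasmic reticulum by the TAP transporter and placed on the heavy chain with the help of tapasin. Class II molecules show peptides from the endocytic route to CD4+ T cells and are made by dendritic cells, macrophages and B cells and, in the lung, also by alveolar type II cells. Their transcription and that of the invariant chain depend on the coactivator CIITA, and interferon gamma induces both classes. A/J mice carry the H2 haplotype a, whose genes differ in sequence from those of the haplotype b of C57BL/6, the strain of the reference sequence.

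Promoter sequences are shown for 4 members that the results turn on: the class I heavy chain gene measured, the transporter gene that faces an immunoproteasome gene, and the pair of class II chain genes that differed most between mice. RefSeq promoter windows (build GRCm38.p6) of 7 of the 10 members were searched, and none is shown for the others. Each line gives the 250 bases before the start of the gene, 5′ to 3′ on the strand of the gene, and capitals mark CCAAT (the Y box of MHC promoters) and TGACG (the core of the X2 box) on either strand. They lie at chr17:35262844-35263093 (+ strand, H2-D1), chr17:34187306-34187555 (+ strand, Tap1), chr17:34287824-34288073 (- strand, H2-Aa) and chr17:34305617-34305866 (+ strand, H2-Eb1).
H2-D1: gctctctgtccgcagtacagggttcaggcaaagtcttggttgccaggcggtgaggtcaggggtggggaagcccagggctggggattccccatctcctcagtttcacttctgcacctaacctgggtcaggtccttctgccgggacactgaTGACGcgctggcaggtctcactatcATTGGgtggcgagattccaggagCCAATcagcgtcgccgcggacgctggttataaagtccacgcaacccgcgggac
Tap1: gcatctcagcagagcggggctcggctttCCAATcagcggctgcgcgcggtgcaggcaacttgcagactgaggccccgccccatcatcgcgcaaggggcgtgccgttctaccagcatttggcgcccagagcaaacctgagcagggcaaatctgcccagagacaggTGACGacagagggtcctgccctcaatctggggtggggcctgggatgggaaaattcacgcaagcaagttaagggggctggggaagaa
H2-Aa: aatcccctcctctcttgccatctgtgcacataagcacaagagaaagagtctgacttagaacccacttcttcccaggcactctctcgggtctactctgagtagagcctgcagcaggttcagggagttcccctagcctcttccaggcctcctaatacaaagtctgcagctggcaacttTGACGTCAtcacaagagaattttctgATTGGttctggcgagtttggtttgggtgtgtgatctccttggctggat
H2-Eb1: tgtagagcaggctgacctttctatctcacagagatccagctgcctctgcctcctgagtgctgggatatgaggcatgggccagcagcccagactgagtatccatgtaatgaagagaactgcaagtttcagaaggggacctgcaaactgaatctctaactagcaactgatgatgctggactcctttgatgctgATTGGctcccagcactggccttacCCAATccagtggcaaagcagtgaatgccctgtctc
CCAAT was present in the windows of all 4 genes, and in 33.8% of the 32851 windows of this length in the RefSeq table. TGACG was present in the windows of H2-D1, Tap1 and H2-Aa and in 17.8% of all windows. In H2-Aa it occurred once on each strand, in overlapping places 74 to 67 bases before the start, and the CCAAT lay 48 to 44 bases before it. In H2-Eb1 a CCAAT lay on each strand, 59 to 55 and 35 to 31 bases before the start, and TGACG did not occur. The core of the interferon-stimulated response element, searched on both strands as GAAA and GAAA with any 2 bases between them, was found in none of these 4 windows, in that of B2m, and in 2.98% of all windows. The sequences are those of C57BL/6J and not of A/J, and a match describes the letters only. Only these exact patterns were searched, so a window without a match may still hold a variant of the element.

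None of the 9 measured members passed the test of its mean log ratio against 0 (limma, Benjamini-Hochberg adjusted p at most 0.05 over 8384 genes), against 12.5% of all genes tested, 7.69% above 0 and 4.81% below. At an unadjusted p under 0.05, 3 of the 9 were found (Tapbp, H2-D1 and H2-Ab1), against 31.8% of all genes. The means of 7 members lay above 0 and those of Tapbp and Cd74 below it. The median of the 9 means was 0.16, against 0.0015 for all genes tested, and the median of their sizes regardless of sign was 0.26, against 0.16 for all genes. Of the 9, 3 had the same sign in all 4 mice, as had 46.4% of the 6057 genes with 4 values. H2-D1 and H2-Ab1 were above 0 in every mouse, against 24.8% of those genes, and Tapbp below 0 in every mouse, against 21.6%, and the other 6 members lay on both sides of 0.

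**Figure D1:**
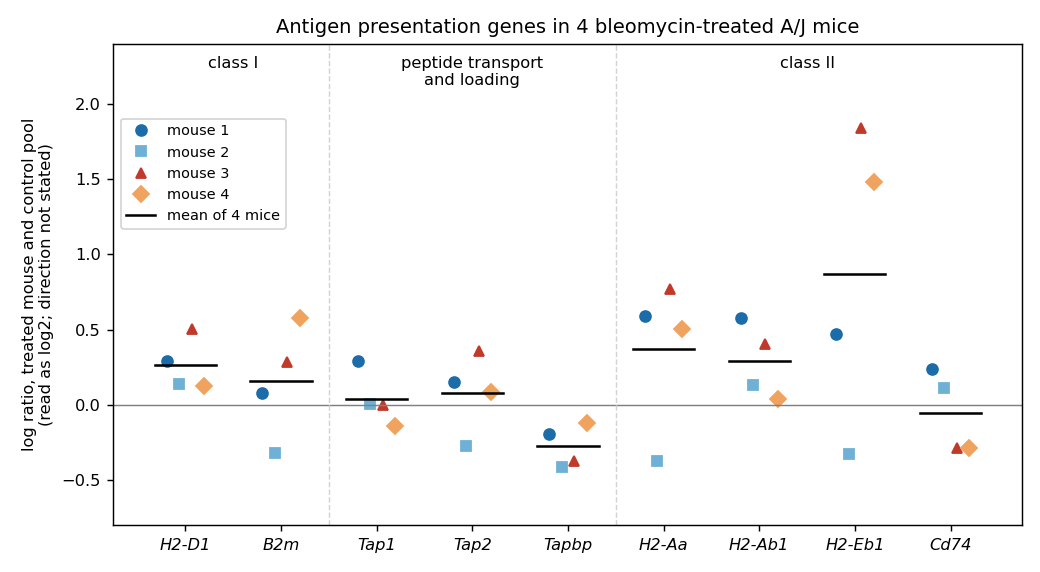
Log ratio of each measured member (vertical axis, read as log2) in each of the 4 treated mice (symbols), with the mean of the 4 (black bar), grouped by role. H2-Eb1 reaches 1.84 and 1.48 in mice 3 and 4 and lies at -0.33 in mouse 2, while every other value lies between -0.41 and 0.77.

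H2-D1, a classical class I heavy chain gene, had log ratios of 0.29, 0.14, 0.50 and 0.12 in mice 1 to 4. All 4 values were above 0, with the highest in mouse 3. The mean was 0.26 ± 0.18 (SD, n = 4), with a limma 95% interval of 0.049 to 0.48, and it did not pass (limma adjusted p = 0.103). Class I heavy chain genes are close in sequence, so the H2-D1 probe may also have bound transcripts of its relatives, H2-K1 among them.

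B2m encodes beta-2 microglobulin, the light chain of class I molecules and of their non-classical relatives. Its log ratios were 0.077, -0.32, 0.28 and 0.58 in mice 1 to 4. Mouse 2 lay below 0 and the others above, and the mean was 0.16 ± 0.38 (SD, n = 4; limma adjusted p = 0.513). It was 0.014 without mouse 4 and 0.31 without mouse 2. The heavy and light chain genes thus differed in their order over the mice. H2-D1 minus B2m was 0.22, 0.46, 0.22 and -0.46 in mice 1 to 4, and its mean of 0.11 was smaller than its spread of 0.40 (SD, n = 4).

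The transporter subunit genes had means near 0. Tap1 had log ratios of 0.29, 0.005, -0.003 and -0.14 in mice 1 to 4, and a mean of 0.038 ± 0.18 (SD, n = 4; limma 95% interval -0.18 to 0.26; limma adjusted p = 0.802). Tap2 had 0.15, -0.28, 0.36 and 0.087, and a mean of 0.079 ± 0.26 (SD, n = 4; limma 95% interval -0.20 to 0.35; limma adjusted p = 0.666). The TAP transporter is a dimer of both products, and the sign of neither mean held over the mice: without mouse 1 the mean of Tap1 was -0.047, and without mouse 3 that of Tap2 was -0.014. Tap1 exceeded Tap2 in mice 1 and 2, by 0.14 and 0.28, and was lower than it in mice 3 and 4, by -0.36 and -0.23.

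Tapbp encodes tapasin, which holds empty class I molecules at the transporter. It was the member with the smallest p-value, and the only measured member below 0 in every mouse, with log ratios of -0.19, -0.41, -0.38 and -0.12 in mice 1 to 4. The mean was -0.28 ± 0.14 (SD, n = 4), with a limma 95% interval of -0.47 to -0.084, and it missed the threshold (limma adjusted p = 0.0721). Its relative Tapbpl, a peptide editor of class I molecules, was also below 0 on the 3 arrays with a value, at -0.22, -0.55 and -0.34 in mice 1, 2 and 3, and did not pass (limma adjusted p = 0.0758).

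Among the class II genes, H2-Eb1, the beta chain gene of the I-E molecule, had the largest mean of all members and also the largest spread. Its log ratios were 0.47, -0.33, 1.84 and 1.48 in mice 1 to 4. Mice 3 and 4 were far above 0, mouse 1 moderately so, and mouse 2 below it. The mean of 0.87 corresponds to a 1.82-fold difference if the base is 2, but the standard deviation was 0.98 (n = 4), and the limma 95% interval ran from -0.016 to 1.75 (limma adjusted p = 0.162). This standard deviation exceeded those of 99.1% of the 6057 genes with 4 values. Leaving out mouse 2 moved the mean to 1.26, and leaving out mouse 3 to 0.54, and neither passed (limma adjusted p = 0.0603 and 0.373).

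H2-Aa, the alpha chain gene of the I-A molecule, had log ratios of 0.59, -0.37, 0.77 and 0.50 in mice 1 to 4. As for H2-Eb1, mouse 2 alone was below 0 and mouse 3 was highest. The mean was 0.37 ± 0.51 (SD, n = 4; limma adjusted p = 0.241), with a standard deviation larger than those of 92.8% of genes. Without mouse 2, the mean of H2-Aa was 0.62 and passed (limma adjusted p = 0.0326), and it was the only member to pass when a mouse was left out.

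H2-Ab1 encodes the beta chain that pairs with H2-Aa. Its log ratios were 0.58, 0.13, 0.40 and 0.040 in mice 1 to 4, all above 0, with a mean of 0.29 ± 0.25 (SD, n = 4; limma 95% interval 0.026 to 0.55; limma adjusted p = 0.131). The chains of the I-A dimer came close to each other in mouse 1 and differed in the other mice: H2-Aa minus H2-Ab1 was 0.013, -0.51, 0.37 and 0.46 in mice 1 to 4, with a mean of 0.084 ± 0.44 (SD, n = 4).

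Cd74 encodes the invariant chain, which occupies the class II groove until peptide loading. Its log ratios were 0.24, 0.11, -0.28 and -0.29 in mice 1 to 4, so that mice 1 and 2 were above 0 and mice 3 and 4 below it. The mean was -0.058 ± 0.27 (SD, n = 4; limma adjusted p = 0.766), and it changed sign without mouse 3 (0.018) or mouse 4 (0.020). Cd74 was lowest in the mice in which H2-Eb1 was highest: H2-Eb1 minus Cd74 was 0.23, -0.43, 2.13 and 1.77 in mice 1 to 4. The mean of this difference was 0.92 ± 1.22 (SD, n = 4). The same pairs of mice stood together over whole arrays: across genes, arrays 1 and 2 correlated at 0.71 and arrays 3 and 4 at 0.855 (Pearson), against 0.43 to 0.56 between the pairs. Genes are not independent replicates, and the part of the arrays in this split was not tested.

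**Figure D2:**
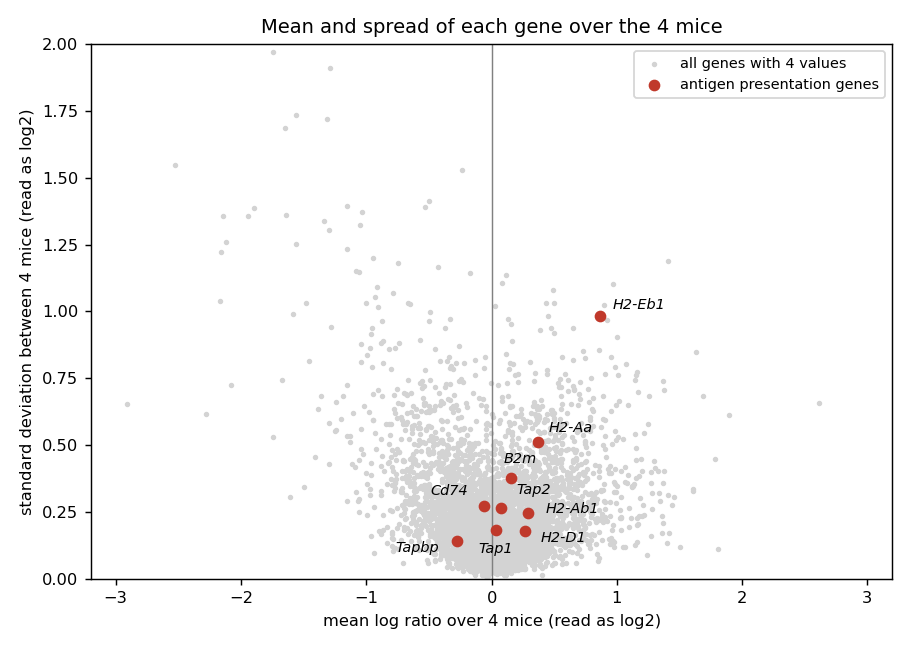
Mean log ratio over the 4 mice (horizontal axis) against the standard deviation between them (vertical axis), both read as log2, for genes with 4 values (grey) and the 9 measured members (red); 3 genes lie outside the axes. H2-Eb1 (mean 0.87, SD 0.98) stands apart from the other members, whose standard deviations run from 0.14 for Tapbp to 0.51 for H2-Aa.

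The mice did not take the same place in the members. Mouse 2 had the lowest value in 5 of the 9 members (B2m, Tap2, Tapbp, H2-Aa and H2-Eb1), against 29.3% of all genes with 4 values, and mouse 4 in the other 4, against 17.7%. Mouse 3 had the highest value in 4 members (H2-D1, Tap2, H2-Aa and H2-Eb1), against 30.3% of all genes. By role, the median of the 4 class II genes was 0.52, -0.11, 0.59 and 0.27 in mice 1 to 4, and that of the 3 transport and loading genes 0.15, -0.28, -0.003 and -0.12. The class II genes were above 0 in 12 of 16 values, the class I chains in 7 of 8, and the transport and loading genes in 5 of 12. These values are not independent, since each group holds 2 to 4 genes measured in the same 4 mice. Centring had set the median of each array to 0.

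Other class II genes were set beside H2-Eb1 and H2-Aa, and those named in this paragraph were chosen after their values were seen. H2-DMa encodes a chain of the H2-DM molecule, which exchanges the invariant chain remnant for peptide. It had log ratios of 0.36, -0.57, 0.56 and 0.27 in mice 1 to 4, with mouse 2 alone below 0, as for H2-Aa (mean 0.15 ± 0.50, SD, n = 4; limma adjusted p = 0.616). Lgmn, a lysosomal protease gene, had values of -0.036, -0.40, 0.86 and 0.64. Ifi30, which encodes a lysosomal thiol reductase that opens disulfide bonds of antigens, had -0.23, -0.44, 0.74 and 0.46. Both genes were below 0 in mice 1 and 2 and above 0 in mice 3 and 4, and neither passed (limma adjusted p = 0.441 and 0.702). Other genes of the class II list ran otherwise: Ctsb, Ctsh and Marchf1 had their lowest values in mouse 3, at -0.38, -0.13 and -0.11. Ciita, the gene of the class II coactivator, had -0.30, 0.13, -0.074 and -0.051, with its highest value in the mouse in which H2-Aa and H2-Eb1 were lowest (mean -0.074 ± 0.18, SD, n = 4; limma adjusted p = 0.603). H2-Ea, the alpha chain gene of the I-E molecule, is listed as a pseudogene in the C57BL/6 reference but is intact in the haplotype of A/J. It had values of 0.18, 0.18 and 0.062 in mice 1, 2 and 4 and none in mouse 3, so it could not be set beside H2-Eb1 in the mouse in which H2-Eb1 was highest.

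The 5 genes closest to H2-Eb1, by the root mean square difference of their 4 values from its own, were Emc2, Mbnl1, Eif3h, Rnps1 and Btf3, at differences of 0.16, 0.21, 0.22, 0.22 and 0.24. None of the 5 is an antigen presentation gene: Emc2 encodes a subunit of the membrane protein complex of the endoplasmic reticulum, Mbnl1 and Rnps1 act in splicing, and Eif3h and Btf3 are linked to translation. Emc2 had log ratios of 0.48, -0.18, 1.57 and 1.55 in mice 1 to 4. All 5 exceeded 1.2 in mice 3 and 4, and none passed the test (limma adjusted p from 0.0802 to 0.158). They were picked for closeness to the values of H2-Eb1, so neither point is an independent observation. Signal and background are not in the values used here, and the part that array or amplification played in this pattern was not tested.

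**Figure D3:**
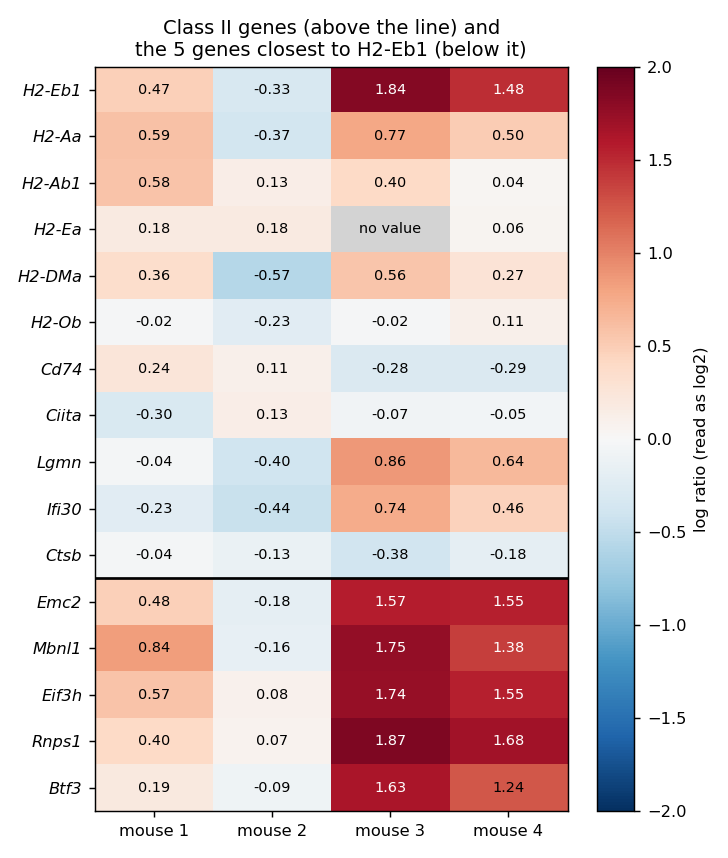
Log ratios (colour and printed value, read as log2) of class II genes and of the 5 genes closest to H2-Eb1 in each treated mouse. H2-Eb1 is highest in mice 3 and 4, while Cd74 is below 0 in those mice. The 5 genes below the line share the pattern of H2-Eb1 because they were picked for closeness to it.

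A wider set of 108 gene symbols of antigen presentation and interferon gamma signalling was then read from the same test. Of the 56 with enough values, 11 passed, 7 above 0 and 4 below. That is 19.6%, against 12.5% of all genes, and the median of the 56 means was 0.13. Only Irf1 of these 11 passed in each of the 12 alternative settings tried, and the others were lost without at least 1 mouse. With mice 1 and 2 and mice 3 and 4 as a random block, 7 of the 11 passed, and Sec61b, Creb1, Cxcl11 and Tgtp1 did not.

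Of 9 tested class I heavy chains and relatives, 1 passed above 0 and 1 below, which is 22.2% against 12.5% of all genes. Hfe, a class I-like gene whose product controls iron uptake, had log ratios of 0.99, 0.48, 0.99 and 0.76 in mice 1 to 4, with a mean of 0.80 ± 0.24 (SD, n = 4; limma adjusted p = 0.0132). H2-Bl, a non-classical class I gene, had -0.80, -0.83, -0.46 and -0.43, with a mean of -0.63 ± 0.21 (SD, n = 4; limma adjusted p = 0.0189). Hfe was above 0 in every mouse and H2-Bl below 0 in every mouse. Hfe was lost without mouse 4 and H2-Bl without mouse 1, at limma adjusted p = 0.0503 and 0.0629. Fcgrt, the heavy chain gene of the neonatal Fc receptor, which also binds B2m, missed the threshold (0.63 ± 0.39, SD, n = 4; limma adjusted p = 0.0524), and it passed without mouse 2 (limma adjusted p = 0.0206). H2-M3, which presents formylated peptides, had a mean of 0.44 ± 0.38 (SD, n = 4) and missed it too (limma adjusted p = 0.112). Its value of 0.99 in mouse 1 stood above the others, and the mean was 0.25 without that mouse. H2-Q7, named after its values were seen, had the order of H2-Aa, with mouse 2 alone below 0 (0.42, -0.27, 0.47 and 0.37 in mice 1 to 4; limma adjusted p = 0.273).

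Of 14 tested genes of class I peptide supply and loading, 2 passed below 0 and none above. At 14.3%, the share was near the 12.5% of all genes. Both genes encode small subunits of the Sec61 channel, through which proteins enter the endoplasmic reticulum. Sec61g had a mean of -0.51 ± 0.11 and Sec61b of -0.62 ± 0.34 (SD, n = 4; limma adjusted p = 0.0152 and 0.0424). Leaving out mouse 1 or 3 lost Sec61g, and leaving out mouse 1, 2 or 3 lost Sec61b (highest limma adjusted p = 0.124). The random block lost Sec61b as well (limma adjusted p = 0.0823). Hspa5, an endoplasmic reticulum chaperone gene, missed the threshold at 0.48 ± 0.28 (SD, n = 4; limma adjusted p = 0.0524). The 3 immunoproteasome genes, named after their values were seen, did not pass: Psmb8 had a mean of 0.19, Psmb9 of -0.19 and Psmb10 of 0.34 (limma adjusted p = 0.286, 0.208 and 0.217). Psmb9 lies head to head with Tap1, and their promoter windows of 300 bases shared 275 bases. Psmb9 had log ratios of -0.20, -0.45, -0.17 and 0.034 in mice 1 to 4. Tap1 minus Psmb9 was 0.49, 0.45, 0.17 and -0.18, so the neighbours differed by 0.23 ± 0.31 (SD, n = 4), less than the spread between mice.

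Of 15 tested genes of class II chains, loading and transcription, 2 passed above 0 and none below. At 13.3%, the share was near the 12.5% of all genes. Both genes encode widely expressed transcription factors, and binding to the promoters shown above was not measured. Nfya, a subunit of the CCAAT-binding factor NF-Y, had 1.01, 0.91, 0.42 and 0.51 in mice 1 to 4, with a mean of 0.71 ± 0.29 (SD, n = 4; limma adjusted p = 0.0234). Creb1, whose product can bind the X2 box, had 0.42, 0.78, 0.41 and 0.51, with a mean of 0.53 ± 0.17 (SD, n = 4; limma adjusted p = 0.0212). Leaving out mouse 1, 2 or 4 lost Nfya, and leaving out mouse 1, 3 or 4 lost Creb1 (highest limma adjusted p = 0.0715). The random block lost Creb1 as well (limma adjusted p = 0.0504). The other NF-Y subunit genes, Nfyb and Nfyc, named after their values were seen, had means of 0.16 and 0.014 (SD 0.15 and 0.18, n = 3 each; limma adjusted p = 0.319 and 0.939). Of the remaining genes, Marchf8, a ubiquitin ligase gene, and Ctsb, a lysosomal protease gene, had the smallest p-values and did not pass (means 0.18 and -0.18; limma adjusted p = 0.118 and 0.171).

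Of 18 tested genes of interferon gamma signalling and its targets, 4 passed above 0 and 1 below, which is 27.8% against 12.5% of all genes. Irf1, an interferon-induced transcription factor known to act on the promoter shared by Tap1 and Psmb9, had nearly the same log ratio in every mouse, at 0.64, 0.53, 0.56 and 0.65 in mice 1 to 4. Its mean was 0.59 ± 0.060 (SD, n = 4; limma adjusted p = 0.00902). Ifngr1, the ligand-binding chain gene of the interferon gamma receptor, had 1.24, 0.74, 0.56 and 0.67, with a mean of 0.80 ± 0.30 (SD, n = 4; limma adjusted p = 0.0187). Irf1 and Ifngr1 were above 0 in every mouse. Tap1 had 0.29, 0.005, -0.003 and -0.14 in mice 1 to 4, and a relation between these genes and Tap1 was not tested. Socs1, an inhibitor of cytokine signalling that interferon gamma induces, was below 0 in every mouse, at -0.54, -0.75, -1.13 and -0.60 (mean -0.75 ± 0.27, SD, n = 4; limma adjusted p = 0.0174). The chemokine gene Cxcl11 and the GTPase gene Tgtp1 had means of 0.40 ± 0.088 and 0.56 ± 0.34 (SD, n = 4; limma adjusted p = 0.0238 and 0.0493). Irf9 missed the threshold (0.50 ± 0.30, SD, n = 4; limma adjusted p = 0.0526), and the GTPase gene Ifi47 had a mean of -0.41 ± 0.31 (SD, n = 3; limma adjusted p = 0.123). Leaving out mouse 4 lost Ifngr1 and Socs1, and leaving out mouse 1, 3 or 4 lost Cxcl11 and Tgtp1 (highest limma adjusted p = 0.148). The random block lost both as well (limma adjusted p = 0.0535 and 0.0788). Tgtp1 was also lost without centring, with genes on at least 2 arrays, with robust eBayes and with arrays scaled alike, at limma adjusted p from 0.0503 to 0.0544. Ifng, the ligand gene, named after its values were seen, averaged -0.12 ± 0.086 (SD, n = 4), with a limma adjusted p of 0.283.

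**Figure D4:**
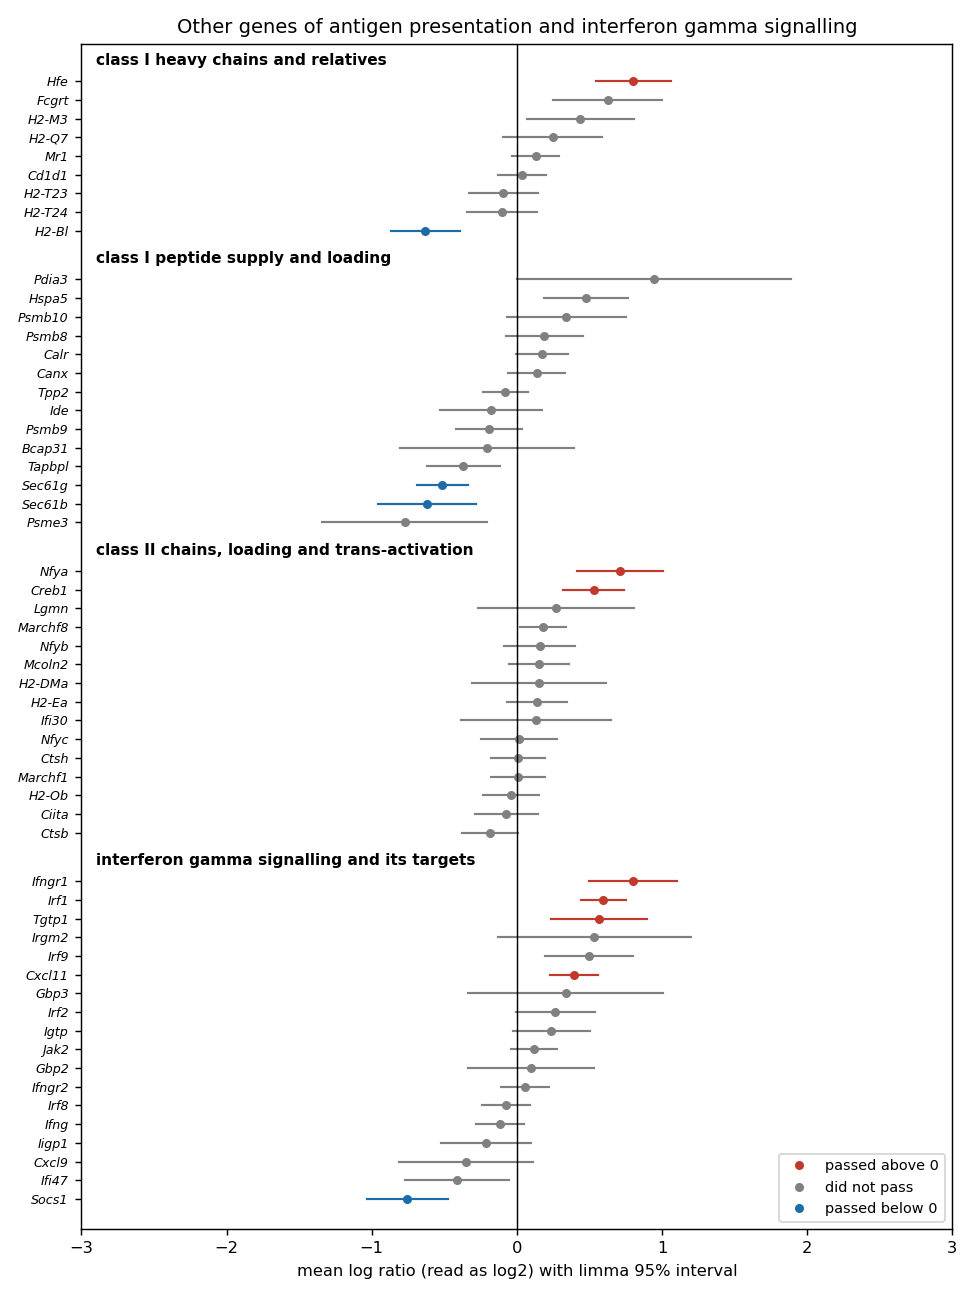
Mean log ratio (point, read as log2) with its limma 95% interval (line) for the 56 tested genes of the 4 wider lists; red passed above 0, blue below 0, grey did not pass. Of the 11 genes that passed, Cxcl11 lies nearest to 0, at 0.40; Pdia3 and Psme3, named after their values were seen, have the means farthest above and below 0, with wide intervals, and did not pass.

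Cells that carry class II molecules, and also T and NK cells, endothelial cells and neutrophils, were followed through their markers. The part of these markers in the members' values was not tested. Of 12 tested B cell markers, 2 passed below 0 and none above, which is 16.7% against 12.5% of all genes. Fcmr, an immunoglobulin M receptor gene, had a mean of -0.80 ± 0.17, and Blnk, an adaptor gene of the B cell receptor, of -0.46 ± 0.16 (SD, n = 4; limma adjusted p = 0.00902 and 0.0260). The median of the B cell list was -0.30, -0.36, -0.056 and -0.082 in mice 1 to 4. Of the defining B cell genes, named after their values were seen, Ms4a1 had a mean of 0.13 and did not pass (limma adjusted p = 0.304), and Cd79a and Cd79b had too few values.

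Of 18 tested dendritic cell and macrophage markers, 4 passed above 0 and 1 below, which is 27.8% against 12.5% of all genes. The lectin gene Siglecf had a mean of 0.54 ± 0.13 (SD, n = 4), the mannose receptor gene Mrc1 of 0.74 ± 0.16 (SD, n = 3) and Apoe, an apolipoprotein gene of macrophages and other cells, of 0.96 ± 0.51 (SD, n = 4), at limma adjusted p = 0.0153, 0.0187 and 0.0334. Ccl17, a chemokine gene of dendritic cells, had a mean of -0.65 ± 0.36 (SD, n = 4; limma adjusted p = 0.0414) and was lost whichever mouse was left out. The means of 8 of the 18 tested markers lay above 0. C1qb and Itgax, named after their values were seen, were below 0 in every mouse, with means of -0.95 and -0.31. C1qa, named likewise, had a mean of -0.61 (n = 3). C1qb, Itgax and C1qa did not pass (limma adjusted p = 0.0634, 0.0913 and 0.202). The list median was -0.023, 0.042, 0.15 and 0.12 in mice 1 to 4, each over the genes with a value in that mouse. Of the markers with 4 values, Ccl17, Cd68, Marco, Siglecf, C1qb, Apoe and Ptprc were lowest in mouse 2, as were H2-Aa and H2-Eb1. Itgax, Flt3, Batf3, Zbtb46, Fabp1 and Car4 were lowest in another mouse. Among all genes with 4 values, mouse 2 was lowest in 29.3%. Single markers on this list, named after their values were seen, took different orders over the mice. Marco, a scavenger receptor gene of alveolar macrophages, had -1.23, -1.47, 0.33 and 0.41 in mice 1 to 4, with its highest values in the mice in which H2-Eb1 was highest. Fabp1, a fatty acid-binding protein gene, had 1.70, 0.75, -0.46 and -0.21, with its lowest values in those mice. Car4, a carbonic anhydrase gene, was above 0 in every mouse, at 0.76, 0.53, 0.20 and 0.21. None of these 3 passed (limma adjusted p = 0.402, 0.435 and 0.0623).

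Of 11 tested alveolar type II cell markers, 2 passed above 0 and none below, which is 18.2% against 12.5% of all genes, with list medians of 0.22, 0.43, 0.46 and 0.27 in mice 1 to 4. They were the surfactant protein gene Sftpa1 at 1.28 ± 0.26 and the lysosomal protease gene Ctsc at 0.76 ± 0.37 (SD, n = 4; limma adjusted p = 0.00653 and 0.0309). Sftpc, Sftpd and Abca3, named after their values were seen, did not pass (limma adjusted p = 0.378, 0.464 and 0.598). Their means were 0.46 ± 0.82 (SD, n = 3), 0.19 ± 0.43 and 0.053 ± 0.040 (SD, n = 4). Sftpc and Sftpd lay on both sides of 0 over the mice. Of 14 tested T and NK cell markers, 1 passed, or 7.14% against 12.5% of all genes: the adhesion gene Cd2 at 0.47 ± 0.19 (SD, n = 4; limma adjusted p = 0.0321), with list medians from -0.076 to 0.061 over the mice. The means of 5 of the 14 lay above 0. Other T cell genes, named after their values were seen, did not pass. Cd3d, Cd3e, Cd5 and Cd6 had means of -0.30, -0.013, -0.13 and -0.34, and Cd3g and Cd8a of 0.060 and 0.17. Of 16 tested markers of endothelial cells, which carry class I molecules, 9 passed above 0 and none below. That is 56.2% against 12.5% of all genes, with list medians from 0.43 to 0.95. S1pr1, a sphingosine-1-phosphate receptor gene, was among the 9 at 1.03 ± 0.18 (SD, n = 4; limma adjusted p = 0.00653). Of 6 tested neutrophil markers, 2 passed below 0 and none above, which is 33.3% against 12.5% of all genes. They were the calprotectin genes S100a8 at -2.28 ± 0.62 and S100a9 at -2.08 ± 0.72 (SD, n = 4; limma adjusted p = 0.00798 and 0.0128), and S100a9 missed the threshold when mouse 4 was left out, at 0.0502. Camp, Mpo, Elane and Mmp8, named after their values were seen, did not pass (means -0.33, -0.16, 0.007 and 0.19). The list medians ran from -0.51 to -0.045 over the mice. Of the cell markers named here with a call, Fcmr, Sftpa1, S1pr1 and S100a8 passed whichever mouse was left out, and Blnk, Siglecf, Mrc1, Apoe, Ccl17, Ctsc, Cd2 and S100a9 were lost without at least 1 mouse. With the random block, Blnk, Cd2, Apoe, Ccl17 and Ctsc were lost (limma adjusted p from 0.0562 to 0.0790).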

How the data were processed

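The authors deposited 1 log ratio per spot and array, read here as log2 from its values. Neither labels nor file state its base or direction, the dyes, or how background and arrays were corrected. With the natural logarithm, sizes would grow by 1 common factor and the tests would not change. The table has 0 further columns of samples. Symbols came from GEO's platform annotation of the spots, an old one; 14722 of 17280 spots had 1 symbol, 1 had several and 2557 were not listed. Gene IDs of 14445 were matched to RefSeq (GRCm38.p6), which changed 0 symbols.

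Each array was centred on its median, probes of 1 symbol were averaged, and genes needed a value on at least 3 arrays, which left 8384 (6057 with 4 values). Means were tested against 0 with limma 3.58.1 (R 4.3.3; lmFit, eBayes, two-sided, Benjamini-Hochberg over all genes, threshold 0.05), in a procedure tested on simulated data. The number of arrays limits the precision. The members and lists were chosen with earlier results of these data known. All members are named. Of each wider list the rule names the genes that passed (up to 8) and 2 others with the smallest p. Of each cell type list it names up to 4 that passed, of which some are given here by count only. Genes given with values outside the rule are marked. Alternatives changed centring, filter, averaging, variance model, block, array scale or left out a mouse.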

Additional observations from a re-analysis of the deposited data

How the results depend on the processing

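No paired analysis was possible because the arrays form 1 group with 1 shared pool. Over the alternatives on all 4 mice without a block, the count of genes past limma ran from 1002 to 1182 against 1048. Fitting each probe on its own gave 1273 of 9909, a count of spots and not of genes. With mice 1 and 2 and mice 3 and 4 as a random block, the count of genes was 402. The arrays within these pairs resembled each other, and the block was chosen with earlier results known. Leaving out a mouse gave 296 to 573 genes. Fewer arrays entered these fits, and genes left with 2 values were kept in them. The reason for the lower counts was not tested. No member passed in 11 of the 12 alternatives, and without replicate 2 the count was 1 (H2-Aa); leaving out a mouse thus gave 0 to 1 members. The wider lists had 11 genes past the test, 7 with the random block and 4 to 11 without 1 mouse. Without 1 mouse, the mean ran from -0.047 to 0.098 for Tap1, from -0.014 to 0.20 for Tap2 and from -0.16 to 0.020 for Cd74. It changed sign for Tap1 without mouse 1, Tap2 without mouse 3 and Cd74 without mouse 3 (0.018) or 4, at limma adjusted p of 0.775, 0.955, 0.943 and 0.936; the cause was not tested. The means of H2-D1, B2m, H2-Aa, H2-Ab1 and H2-Eb1 stayed above 0 and that of Tapbp below it in all 12 alternatives. Signal over background is not in these values, so dim spots could not be judged.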
